A study of Mus musculus with 12 samples.

Results

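The miR-297, miR-466, miR-467 and miR-669 miRNAs form a rodent family of short regulatory RNAs, most of whose hairpins lie inside the gene Sfmbt2. Members were taken by name: every assay whose small RNA name begins with 1 of these 4 numbers, without minor strands marked with #. The rule found 30 of 846 spots on the panel, or 30 of its 750 miRNA spots, with 29 distinct names because miR-467a was assayed at a pair of spots. The samples were hand-picked pancreatic islets of male C57BL/6 mice aged 2 to 3 months, the offspring of mothers given a low-protein diet (LP0.5, 6 samples) or a control diet (Control, 6 samples) during the whole of pregnancy. The islets had been released with collagenase and kept overnight in culture medium before total RNA was taken, in both groups. Small RNAs were measured by TaqMan real-time PCR, and the comparison asks which islet miRNAs differ in adult sons after exposure to a low-protein diet in the womb.

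Sfmbt2 encodes a Polycomb-group protein and is imprinted, with expression from the paternal copy in extraembryonic tissue. A large intron of the mouse gene carries repeated miRNA hairpins that arose by local duplication and are made in part of UG and AC repeats. A miRNA recognises target messages mainly through its seed, bases 2 to 8 from the 5′ end. Members with different seeds are thus expected to pair with different messages even where the rest of the strand is alike.

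The name of the cluster fits most members, not all of them. In the mouse RefSeq gene table of assembly GRCm38.p6, used here for gene names and gene order, 72 miRNA genes lie within Sfmbt2, and 71 of them are named for these 4 numbers. Assays of the family name 43 of the 72. All hairpins of 21 family names lie there. For 5 names, miR-466j, miR-466k, miR-467f, miR-467h and miR-669n, the only hairpin of that name lies on another chromosome. Another 3 names were not placed: miR-466b and miR-466c under rat names, and miR-466a-3p, for which the table has no gene of that letter.

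Mature sequences were matched by name in the RefSeq table for these 5 members, and they are printed because they show how unlike the seeds are behind neighbouring names. They are written 5′ to 3′ with the seed in capitals and follow here in the order of their names.
miR-466j: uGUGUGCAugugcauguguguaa
miR-466k: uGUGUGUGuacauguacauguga
miR-467f: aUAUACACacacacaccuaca
miR-467h: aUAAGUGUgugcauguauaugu
miR-669n: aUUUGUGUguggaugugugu

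In GRCm38.p6, miR-466j lies at chr10:60960802-60960824 on the plus strand, outside any other gene of the table. MiR-466k lies at chr3:85467396-85467418 on the plus strand, within the long noncoding RNA gene Gm31419. MiR-467f lies at chr11:69635419-69635439 on the minus strand, within the bounds of Fxr2. MiR-467h lies at chr9:115381898-115381919 on the plus strand, outside any other gene, and miR-669n at chr3:115979905-115979924 on the plus strand, within the bounds of Slc30a7, a zinc transporter gene. Exon and intron limits were not used here.

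The 5 seeds were all different, so no seed group could be formed. MiR-467f differed in composition from the other four: 85.7% of its bases were A or C, while G or U made up 69.6% of miR-466k, 73.9% of miR-466j, 68.2% of miR-467h and 90.0% of miR-669n. For scale, the median share of G or U over the 1738 mature sequences of the table was 54.5%. Each of the 5 holds the run UGUGUG or, in miR-467f, ACACAC, read on the mature strand only; 39 of the 1738 mature sequences (2.24%) hold either run, these 5 included. The longest stretch shared by any pair was 11 bases, between miR-466j and miR-467h. The seed of miR-467h occurs in 1 other mature sequence of the table, miR-668-5p, and the other 4 seeds in none. No mature sequence was matched there for the members within Sfmbt2. These counts therefore cannot show whether those members share a seed or a run with the 5.

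All levels below are ratios from the authors' deposited table, 1 linear value per spot, headed as L.05 against Control. The table holds no replicate values, so no ratio has an error, a p-value or a check against the spread between mice. The direction rests on that heading, by which a value above 1 means more in LP0.5 islets. The study is known for naming miR-199a-3p among the miRNAs raised in low-protein islets, whereas the authors' deposited table lists it at 0.422, so ratios are described only as above or below 1. In whole islets, fewer cells of a type and less of a miRNA per cell cannot be told apart. For scale, the ratios of 38 miRNA names measured by a pair of assays lay 1.31-fold apart in the median and 5.98-fold apart at the 95th percentile. Of these pairs 31 join assays named for different species, which can have different targets, so their differences need not be technical. The 7 pairs of 1 species lay 1.54-fold apart in the median and at most 5.84-fold.

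More family names were listed above 1 than below it. Of the 21 names with a ratio, 14 were above 1 and 7 below, with a median ratio of 1.32 and a range from the 25th to the 75th percentile of 0.940 to 1.81. Over all 528 miRNA names with a ratio the median was 1.01, this range was 0.777 to 1.28, and 50.4% were above 1. At least 1.5-fold above 1 were 8 family names (38.1%), where 18.8% of all miRNA names were. At least 1.5-fold below 1 were 3 family names (14.3%), where 17.6% of all miRNA names were. The remaining 10 lay within 1.5-fold of 1. The members were averaged per name on the log2 scale, and no test of the family against the panel was made.

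**Figure D1:**
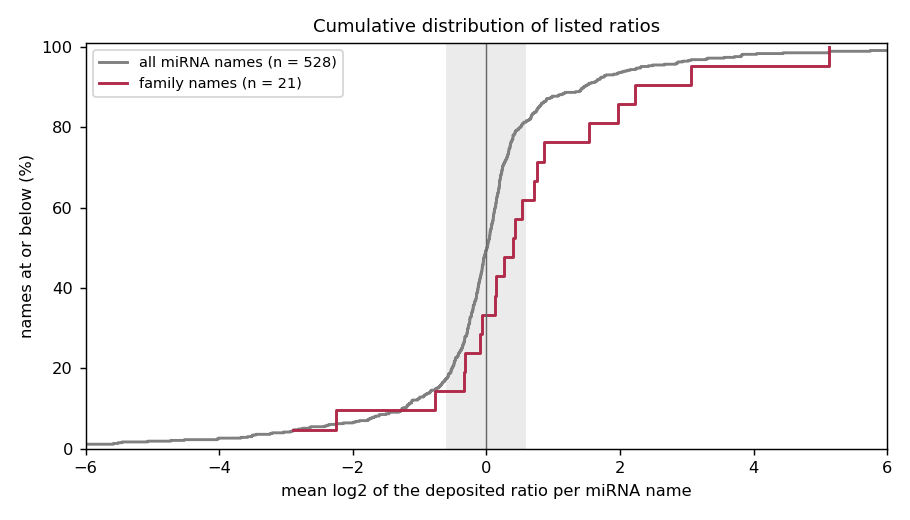
Share of miRNA names (vertical axis, %) at or below a given mean log2 ratio (horizontal axis) for all 528 names and for the 21 family names, with the grey band marking less than 1.5-fold from 1; 11 of the 528 names lie beyond the axis at 6 on either side. The family line runs to the right of the panel line over the upper part, with its median at 0.40 against 0.01.

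The panel holds 2 sets of assays, called A and B in the assay names, and a ratio is listed relative to U6 of its set, since the 8 U6 spots of each assay set had a mean log2 ratio of 0.00. With 4 other small RNAs (snoRNA135, snoRNA202, U87 and Y1) as the reference instead, log2 ratios fell by 0.20 in the A set and by 0.12 in the B set, and the panel median went from 0.01 to -0.15. The family median on the log2 scale then went from 0.40 to 0.23, with 13 names above 1 and 8 below. The family counts at least 1.5-fold from 1 were again 8 and 3, while 16.5% of all names were above that limit and 23.7% below. That reference includes 1 outlying U87 spot of the B set. Without it, 6 family names (28.6%) were at least 1.5-fold above 1 and 3 below, where 14.8% and 24.6% of all names were, and 12 family names were above 1 and 9 below. The sign of miR-467d turned with this reference, from 0.15 to -0.05 on the log2 scale.

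**Figure D2:**
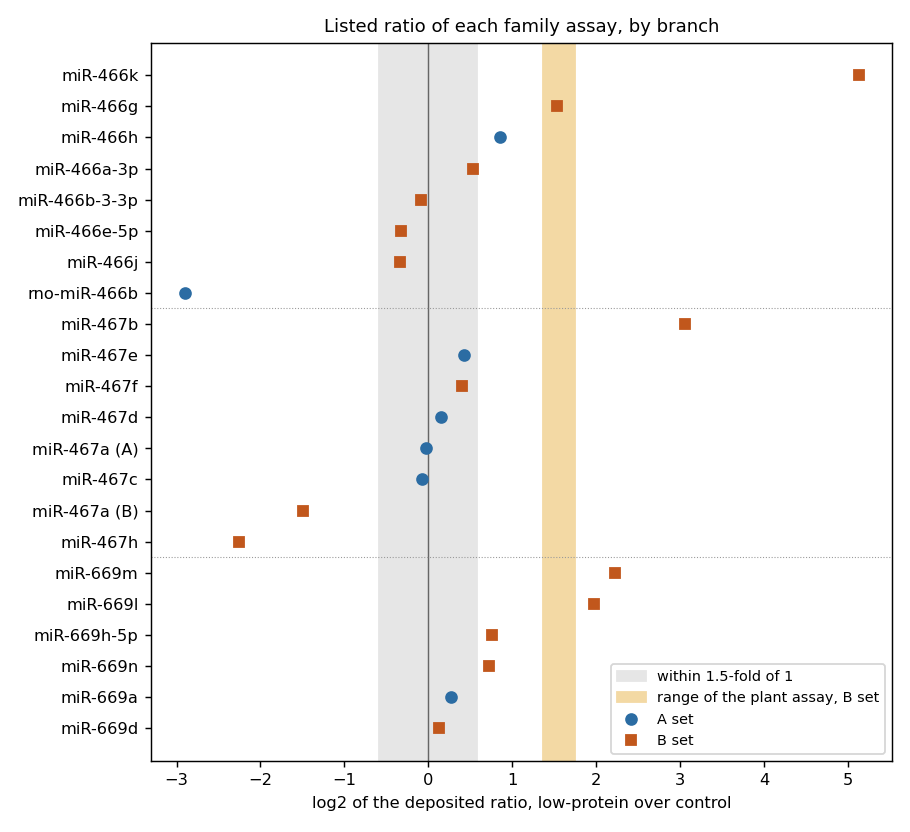
Log2 of the ratio in the authors' deposited table (horizontal axis) for the 22 family spots that have one, grouped into miR-466, miR-467 and miR-669 from top to bottom, with circles for the A set and squares for the B set of assays. The grey band marks less than 1.5-fold from 1 and the tan band the 8 spots of the plant assay in the B set, from 2.59 to 3.37; 4 squares lie to the right of the tan band and 1 within it.

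The miR-466 branch held both ends of the family. Its 10 names gave 8 ratios, 4 above 1 and 4 below, with a median of 1.16. The highest was miR-466k, whose printed sequence starts with an unbroken UG repeat, at 35.0 in the authors' deposited table. The lowest was the assay under the rat name rno-miR-466b, at 0.134 in the same deposited table of the authors, or 7.45-fold below 1. Without ratios over 16-fold from 1, which removes only miR-466k here, the median log2 ratio of the branch went from 0.22 to -0.09. With 4 names on either side of 1, the loss of any 1 name above 1 would do the same, however extreme its ratio.

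Between these ends, 2 further members of the branch passed 1.5-fold. MiR-466g had a ratio of 2.89 in the authors' deposited table. MiR-466h, whose hairpin gives a strand described as pro-apoptotic in glucose-starved cultured cells, stood at 1.81 in the authors' deposited table. These neighbouring hairpins, next to each other in the order of the cluster, had ratios on the same side. A nearby pair did not: miR-466e-5p, the 23rd hairpin, was below 1, and miR-467b, the 25th, above it at 8.36 in the authors' deposited table. The other 4 ratios of the miR-466 branch lay close to 1. From the authors' deposited table, miR-466a-3p stood at 1.44, miR-466b-3-3p at 0.940, miR-466e-5p at 0.800 and miR-466j at 0.793. The assay of mouse miR-466b-3-3p and that of rat miR-466b differed by far more than 1.5-fold, under names that share a number and letter but stand for different species. MiR-466j and miR-466k, whose printed strands both begin UGUGUG and part within the seed, were listed on opposite sides of 1.

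The miR-467 branch had wide ends and a middle near 1. Its 8 spots, with 7 names, all had a ratio, 4 names above 1 and 3 below, with a median of 1.11. MiR-467b, described in macrophages as a regulator of lipoprotein lipase, had the highest ratio of the branch, 8.36 in the authors' deposited table. MiR-467h was at the low end, at 0.210 in the authors' deposited table, which is 4.77-fold below 1. Against these ends, miR-467c, miR-467d, miR-467e and miR-467f were all within 1.5-fold of 1, and the authors' deposited table gave them 0.954, 1.11, 1.35 and 1.32. The branch median turned from 0.15 to -0.05 on the log2 scale with the reference of 4 other small RNAs, and to -0.55 in the B set alone.

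MiR-467a, a miRNA linked to high glucose through its target thrombospondin-1, was measured by a pair of assays that differ. Its A set assay had a ratio of 0.977 and its B set assay 0.355 in the authors' deposited table, 2.75-fold apart. Of the 38 miRNA names with a pair of assays, 6 lay farther apart. Its mean of 0.589 and its B set assay counted as at least 1.5-fold below 1, while its A set assay lay within 1.5-fold of 1. Among RefSeq genes, 10 hairpins within Sfmbt2 carry the name miR-467a, so neither value can be assigned to 1 copy.

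The miR-669 branch was listed above 1 relative to U6. All 6 of its names with a ratio were above 1, with a median of 1.67, and 4 were at least 1.5-fold above. Over all miRNA names, 50.4% were above 1 and 18.8% at least 1.5-fold above. Of the 4, miR-669l, miR-669m and miR-669n have assay numbers that start with 12, 19 or 24. Over the panel, 37.1% of spots with such numbers were at least 1.5-fold above 1. With the reference of 4 other small RNAs freed of its outlying U87 spot, 5 of the 6 were above 1 and 2 at least 1.5-fold above; miR-669d turned from 0.13 to -0.08 on the log2 scale, and miR-669h-5p (0.55) and miR-669n (0.50) came within 1.5-fold of 1. The authors' deposited table listed miR-669m at 4.69 and miR-669l at 3.94. Nearer to 1 were miR-669h-5p at 1.69 and miR-669n at 1.64, again as the authors' deposited table gives them. MiR-669a, described as restraining muscle differentiation through MyoD in heart progenitors, stood at 1.21 in the authors' deposited table and has 12 hairpins within Sfmbt2. MiR-669d was the nearest to 1, at 1.09 in the authors' deposited table. The other 4 names of the branch, miR-669c, miR-669e, miR-669g and miR-669o, had no ratio.

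No ratio was listed for either miR-297 member, miR-297b and miR-297c, so nothing can be said of that branch. Besides these and the miR-669 names above, miR-466d-5p and rat miR-466c had none. In all 8 of 30 family spots (26.7%) lacked a ratio, against 184 of the 750 miRNA spots (24.5%). The levels behind the missing and the listed ratios were not analysed here.

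Members inside and outside Sfmbt2 both had wide ranges of ratios, and the difference was not tested. The 14 names with a ratio whose hairpins all lie within Sfmbt2 had a median of 1.27, with 6 at least 1.5-fold above 1 (42.9%) and 1 as far below (7.14%), where 18.8% and 17.6% of all miRNA names were. The 5 names with hairpins elsewhere had a median of 1.32, with 2 above that limit and 1 below, and they ranged from 0.210 to 35.0 in the authors' deposited table. Along Sfmbt2, in chromosome order, the hairpins from the 62nd, Mir669m-1, to the 72nd, Mir669h, are named by 5 assays. All 4 of these with a ratio were at least 1.5-fold above 1, where 18.8% of all miRNA names were: miR-669m, miR-466g, miR-466h and miR-669h-5p. With the reference of 4 other small RNAs freed of its outlying U87 spot these were 3 of 4, without miR-669h-5p (0.55 on the log2 scale). Of these 4, miR-669m and miR-466g have assay numbers that start with 12, 19 or 24. Over the panel, 37.1% of spots with such numbers were at least 1.5-fold above 1. This stretch was picked after its values were seen and was not tested. Just before it, miR-467e and miR-467d, the 53rd and 55th, were within 1.5-fold of 1. Of the members at least 1.5-fold above 1 in the cluster, the 2 outside that stretch were miR-669l, the 8th hairpin, and miR-467b, the 25th.

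**Figure D3:**
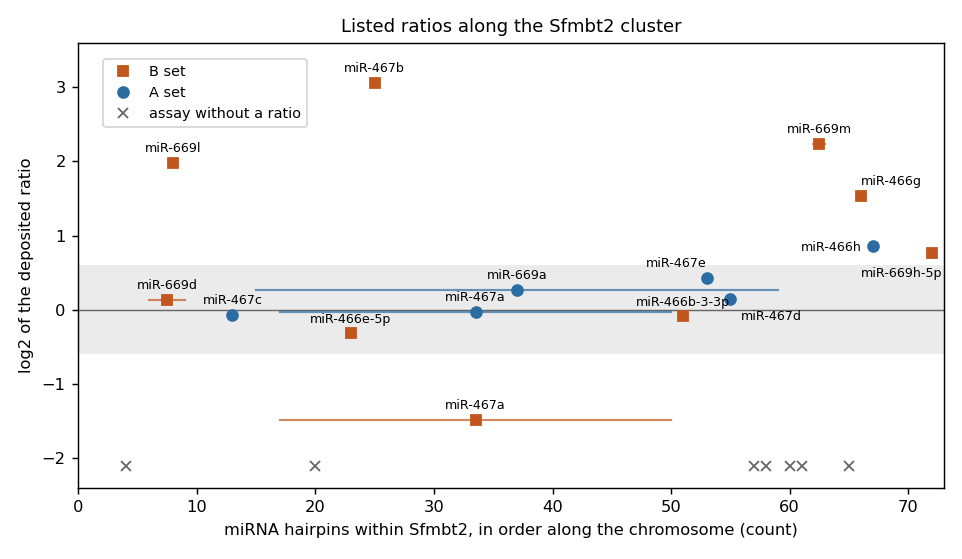
Log2 ratio from the authors' deposited table (vertical axis) against the order of the 72 miRNA hairpins within Sfmbt2 along the chromosome (horizontal axis, count); a line joins the first and last hairpin of a name with several copies, and crosses at the bottom mark assays without a ratio. Relative to U6, the 4 points from the 62nd hairpin on all lie above the grey band, which marks less than 1.5-fold from 1.

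Family ratios were higher among B set assays with late assay numbers, those that start with 12, 19 or 24. In the A set, 1 of 7 family spots was at least 1.5-fold above 1 and 1 as far below, where 13.2% and 15.8% of all A set miRNA spots were. In the B set, 7 of 15 were above and 2 below, where 24.8% and 17.9% of all B set miRNA spots were. Such numbers occurred in the B set alone. All 5 family spots with a late number and a ratio were at least 1.5-fold above 1: miR-466k, miR-466g, miR-669m, miR-669l and miR-669n. Over the panel 37.1% of such spots were above that limit and 22.6% as far below, with ratios from 0.000109 to 801. Of the 17 family spots whose number starts with 00, 3 (17.6%) were above and 3 below, where 16.3% and 16.1% of all such spots were. Within the B set, 2 of 10 family spots with such a number were above and 2 below, with a median of 1.01 against 1.11 for the A set members, where 21.0% and 16.5% of all such B set spots were. With the late numbers included the median of the B set members was 1.44. Without the 5 assays, the family median on the log2 scale was 0.14 in place of 0.40. The part of the assay number in the family's ratios was not tested.

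**Figure D4:**
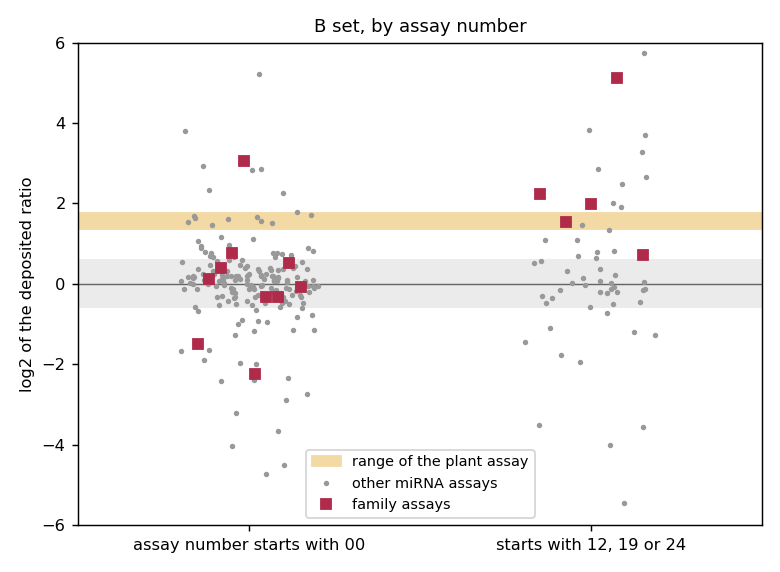
Log2 ratio from the authors' deposited table (vertical axis) for the miRNA spots of the B set by the start of the assay number, with family spots as red squares and others as grey points spread sideways at random; 10 of the B set spots lie beyond the axis at 6 on either side. All 5 red squares on the right lie above the grey band (less than 1.5-fold from 1), and those on the left lie on both sides of it.

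A negative control gives a scale for the B set ratios. The plant assay ath-miR159a, which has no mouse target, had a ratio at all 8 of its B set spots in the authors' deposited table, from 2.59 to 3.37 with a median of 3.01. MiR-466g falls inside that range, and miR-466k, miR-467b, miR-669m and miR-669l lie above it. In the A set 2 of 8 plant spots had a ratio, 0.139 and 1.96 in the authors' deposited table; rat miR-466b, at 0.134, lies next to the lower of these. Whether these family assays and the plant assay share a cause was not tested. Farther from 1 than 5.98-fold, the 95th percentile given above for pairs of assays, were 3 of the 22 family spots (13.6%), miR-466k, miR-467b and rat miR-466b, where 9.36% of all miRNA spots were.

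Markers of the cells an islet preparation can hold were mostly listed nearer to 1 than the ends of the family. All 10 islet endocrine miRNAs on the list, led by miR-375, had a ratio, from 0.523 to 1.45 with a median of 0.991. The 3 acinar markers ran from 0.726 to 1.32, the 3 blood markers from 0.620 to 1.21, and the 3 muscle markers from 0.196 to 1.98. These values are means per name, which can hide assays that differ. On the log2 scale, acinar miR-217 stood at 0.87 by its A set assay and -0.07 by its B set assay. Muscle miR-1 stood at 1.09 under its rat name and -0.06 under its human name. The higher assay of each was at least 1.5-fold above 1. The pair for blood miR-223 lay close together, at 0.31 and 0.24. Endothelial miR-126-3p was at 0.975 in the authors' deposited table. Their levels were not analysed, so these ratios do not show how much of each cell type was present, and their part in the family's ratios was not tested.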

How the data were processed

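Total RNA of 12 islet samples (6 LP0.5, 6 Control) was assayed by FAM-labelled TaqMan PCR, per the labels' protocols; the submitters' processing notes name limma without its role. The authors deposited a table of linear ratios per spot, per the file headers. A second deposited table gave assay and small RNA names; its 12 columns of per-sample values match no sample label and were not used, so the planned limma test was not run and no depth is known. Ratios were turned into log2 values and averaged per miRNA name without species prefix. Assay sets were read from the spot code. Members, lists and groupings were chosen with earlier results of these data known. All members with a ratio are named. A 1.5-fold limit described sizes; alternatives covered the reference, set, fold limit, extreme ratios, starred strands, species and spots. The counting steps were tested on simulated data. Sequences came from RefSeq, GRCm38.p6. Python 3.11.15, numpy 2.4.6, pandas 2.3.3 and matplotlib 3.10.9 were used.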

Additional observations from a re-analysis of the deposited data

How the results depend on the processing

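The family's log2 median of 0.40 went to 0.15 in the A set alone and to 0.14 without assay numbers starting with 12, 19 or 24. The 8 names at least 1.5-fold above 1 became 1 of 7 in the A set (all names 12.9%), 5 of 21 at a 2-fold limit (12.3%), and 3 of 16 without those assay numbers (16.5%); the 3 names below became 1 in the A set (15.6%) and 1 of 14 among names placed in Sfmbt2 (17.6%). With the reference of 4 other small RNAs without 1 U87 spot, 6 were above (14.8%). Fewer family spots enter each of these but the 2-fold limit and the reference without 1 U87 spot. Branch medians turned sign to -0.05 (miR-467, reference of 4 other small RNAs), -0.55 (miR-467, B set) and -0.09 (miR-466, without ratios over 16-fold from 1). Restriction by assay number, restriction to Sfmbt2 and the reference without 1 U87 spot were chosen after seeing the data. The comparison by seed was not run, as sequences were matched for only 5 members and their seeds differ. No paired analysis was possible because the per-sample columns carry no replicate number of the labels, and for the same reason no replicate could be left out. The precision of each ratio is unknown.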

Other observations

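The minor strands that the rule left out lay within 1.5-fold of 1. In the authors' deposited table miR-297a# has a ratio of 0.800 and miR-467# one of 1.08, while miR-467e# has none. MiR-297a# is the only miR-297 assay of the panel for which the authors' deposited table gives a value.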
